A study of Lytechinus variegatus with 23 samples.

Results

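The 6 genes described here are Sm50 and the spicule matrix lectins named beside it in the count table of Lytechinus variegatus, a sea urchin, out of 27231 gene IDs used. They were chosen by gene ID and name: Sm50 (L_var_27181) and C-lectin/PMC1 (L_var_26903), with every ID whose matched Strongylocentrotus purpuratus name begins with Sm29, Sm32, Sm37, Pm27 or Sm50. That rule added Sm32 (L_var_27180), Sm37 (L_var_27179), Pm27 (L_var_27177) and Sm29 (L_var_26743). It used IDs and names only, but was set with earlier results of these data known. Bulk mRNA of whole embryos was sequenced for an untreated control and for embryos given alizarin red, the calcium-binding stain used to see mineralised skeleton. Both treatments were sampled at 12, 18, 24 and 30 hpf (hours post fertilisation). The 8 groups had replicates A, B and C, so n = 3, but alizarin embryos at 18 hpf had B and C only, so n = 2. That gave 12 control and 11 alizarin libraries, and no genotype, dose or start of exposure was given in the sources used here.

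The larval skeleton of a sea urchin is a pair of calcite spicules built by the primary mesenchyme cells (PMCs), a lineage that enters the blastocoel, fuses and deposits mineral inside a shared membrane. PMCs secrete a family of spicule matrix proteins, most with a C-type lectin domain and many with a stretch of short repeats, which are trapped in or coat the mineral. SM50 is the founding basic member in S. purpuratus, and spicules fail to grow there when it is blocked. The gene names are those of the S. purpuratus match, so the roles given below are known from that species.

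All 6 genes passed the filter on low counts in the 18419 genes tested. Levels are in CPM, a gene's reads as a share of the library, after TMM scaling, which corrects for unequal composition of the libraries. They are compared between libraries and not between genes, since no gene lengths were used. Total counts per library lay between 8194215 and 11730004. A difference is log2 alizarin minus control with its SE from edgeR's quasi-likelihood test, with Benjamini-Hochberg adjustment over all genes tested and a threshold of 0.05. Library B of the alizarin group at 12 hpf had the lowest of that group's levels for every one of the 6 genes, and library A of the alizarin group at 30 hpf had the highest. The latter also had the lowest TMM factor of the series, 0.616, against 1.41 in alizarin library A at 24 hpf. In whole-embryo RNA, fewer PMCs and less of a transcript per PMC cannot be told apart.

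Averaged over the times, the transcripts of all 6 genes fell in alizarin embryos, to between 1.94-fold lower (Sm29) and 4.4-fold lower (C-lectin/PMC1). Of all genes tested, 2.93% were called lower on that mean. The groups were fully separate at the later times. At 24 and 30 hpf every alizarin library lay below every control library for all 6 genes, against 10.7% and 17.8% of all genes tested. At 12 hpf the groups overlapped for all 6. No gene of the 6 passed the test of whether its difference changed with time. C-lectin/PMC1 had the widest gap, 19.7-fold at 24 hpf.

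**Figure D1:**
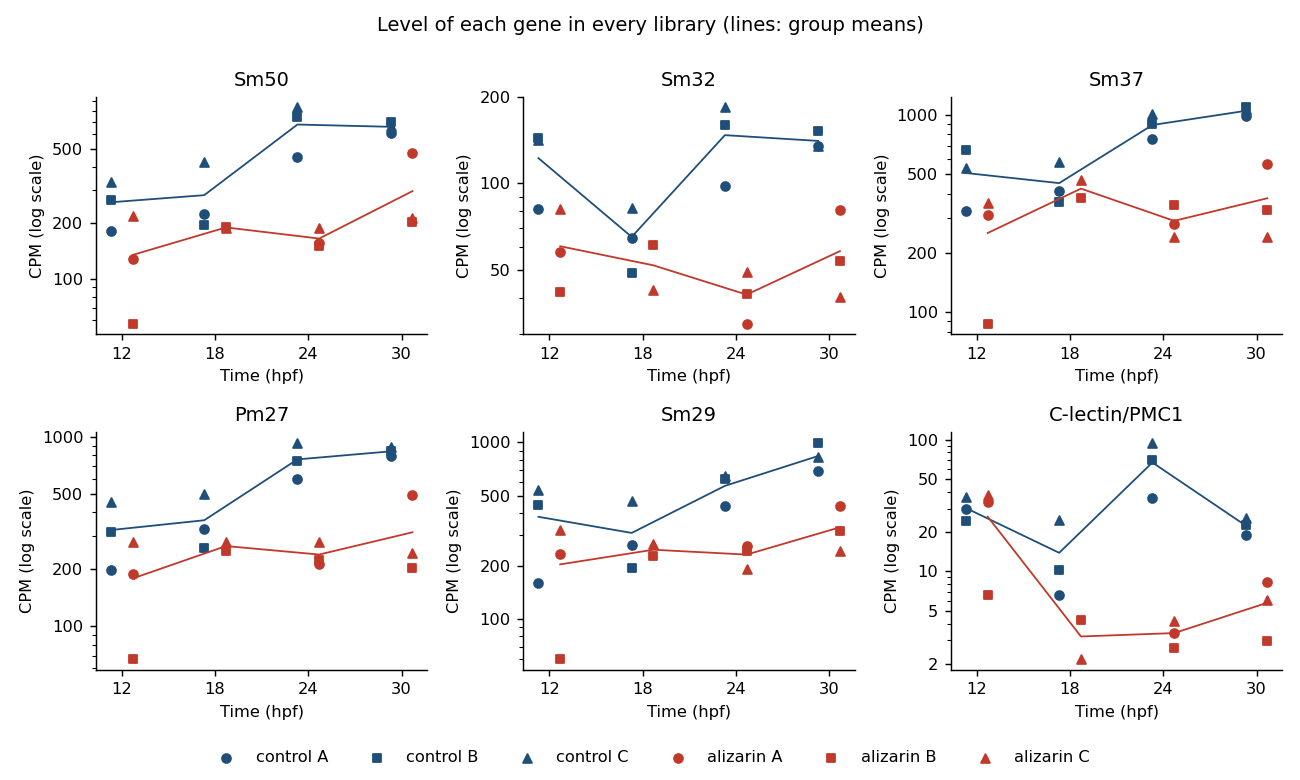
Level of each of the 6 genes (CPM, log axis) against collection time (hpf) in every library, control in blue and alizarin in red, with a marker for each replicate and lines through the group means. Control means of Sm50 were 282 CPM at 18 hpf and 675 CPM at 24 hpf, and the alizarin means 189 and 165 CPM.

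Sm50, the basic matrix protein occluded in the spicule, was present in controls from the first collection. Control libraries A, B and C had 180, 264 and 330 CPM at 12 hpf and 224, 195 and 426 CPM at 18 hpf. They had 450, 741 and 834 CPM at 24 hpf and 611, 697 and 661 CPM at 30 hpf. The step lay between 18 and 24 hpf, where the lowest later control was above the highest earlier one.

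Alizarin libraries A, B and C had 128, 57.5 and 218 CPM of Sm50 at 12 hpf, and libraries B and C had 191 and 187 CPM at 18 hpf. At 24 hpf libraries A, B and C had 156, 151 and 187 CPM, and at 30 hpf 474, 201 and 213 CPM. No alizarin library reached the 24 hpf control mean of 675 ± 200 CPM (SD, n = 3), and the nearest was library A at 30 hpf. The alizarin mean was 52.1% of the control mean at 12 hpf, 67.0% at 18 hpf, 24.4% at 24 hpf and 45.1% at 30 hpf.

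Sm32 is a second basic spicule matrix protein, closely related in sequence to SM50 in S. purpuratus. In the deposited table Sm32 and Sm50 carried the same protein match, so reads could be split between them and each level is uncertain. With their reads summed, the 24 hpf difference was -2.0 (edgeR adjusted p = 0.0202), against -2.04 for Sm50 alone. Sm32 in control libraries A, B and C stood at 81.5, 144 and 142 CPM at 12 hpf, 64.8, 48.7 and 81.9 CPM at 18 hpf, 98, 160 and 184 CPM at 24 hpf, and 135, 152 and 135 CPM at 30 hpf. Its control means of 123, 65.1, 147 and 140 CPM were lowest at 18 hpf, whereas those of Sm50 were 258, 282, 675 and 656 CPM. In alizarin embryos Sm32 stood at 57.7, 41.9 and 81.7 CPM at 12 hpf, 61.1 and 42.6 CPM at 18 hpf (B and C), 32.5, 41.3 and 49.2 CPM at 24 hpf, and 80.6, 53.6 and 40.1 CPM at 30 hpf. No alizarin library after 12 hpf exceeded 80.6 CPM.

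Sm37, another basic protein of the spicule matrix, had 758, 906 and 1007 CPM in controls A, B and C at 24 hpf and 987, 1093 and 1071 CPM at 30 hpf. Alizarin libraries had 281, 350 and 242 CPM at 24 hpf and 566, 331 and 240 CPM at 30 hpf. Neither time had an overlap between the groups. Earlier the groups did overlap, with 325, 662 and 539 CPM in controls and 311, 87.8 and 359 CPM with alizarin at 12 hpf. At 18 hpf controls had 414, 361 and 581 CPM, and alizarin libraries B and C had 380 and 468 CPM.

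Pm27, a PMC-specific protein found on the spicule, had 602, 749 and 930 CPM in controls at 24 hpf and 788, 841 and 887 CPM at 30 hpf. With alizarin it had 212, 225 and 280 CPM at 24 hpf and 494, 203 and 243 CPM at 30 hpf. Both late times again separated the groups. At 12 hpf Pm27 had 198, 315 and 453 CPM in controls and 189, 67.1 and 280 CPM with alizarin, and at 18 hpf 326, 260 and 502 CPM against 251 and 279 CPM (B and C).

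Sm29, a further spicule matrix protein with a C-type lectin domain, had 438, 619 and 648 CPM in controls at 24 hpf and 691, 995 and 829 CPM at 30 hpf. Alizarin libraries had 259, 245 and 193 CPM at 24 hpf and 437, 314 and 243 CPM at 30 hpf, below every control of the same time. Its 12 hpf controls were the most scattered, at 160, 444 and 536 CPM, and alizarin libraries had 234, 59.7 and 320 CPM. At 18 hpf the controls had 264, 195 and 465 CPM, and alizarin libraries B and C had 229 and 266 CPM.

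C-lectin/PMC1, a secreted C-type lectin of the PMCs, followed another course in controls. Its control level was 29.9, 24.1 and 36.7 CPM at 12 hpf, 6.64, 10.2 and 24.7 CPM at 18 hpf, 36.1, 70.4 and 94.4 CPM at 24 hpf, and 18.8, 22.6 and 25.5 CPM at 30 hpf. All 3 controls at 24 hpf lay above every control of 18 and 30 hpf. With alizarin it had 33.5, 6.62 and 37.9 CPM at 12 hpf, then 4.26 and 2.17 CPM at 18 hpf (B and C), 3.39, 2.62 and 4.22 CPM at 24 hpf, and 8.31, 2.96 and 6.11 CPM at 30 hpf. The groups overlapped at 12 hpf alone, and the alizarin mean at 24 hpf was 5.09% of the control mean.

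At 24 hpf 3 of the 6 genes fell by edgeR's quasi-likelihood test, where 0.722% of all genes tested were called lower. C-lectin/PMC1 had a log2 difference of -4.30 (SE 0.61, edgeR adjusted p = 0.00118), Sm32 -1.84 (SE 0.33, adjusted p = 0.00785) and Sm50 -2.04 (SE 0.43, adjusted p = 0.0271). Sm37 at -1.61 (SE 0.41, edgeR adjusted p = 0.0643), Pm27 at -1.67 (SE 0.43, adjusted p = 0.0675) and Sm29 at -1.29 (SE 0.48, adjusted p = 0.253) did not pass. DESeq2 called 5 of the 6, all but Sm29, and called 421 of the 18419 genes lower. Every alizarin library lay below every control library for 6 of 6 genes, against 10.7% of all genes tested. The median difference of the 6 genes was -1.76, and that of all genes tested 0.02.

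The 24 hpf call of Sm50 was lost without any 1 of 5 of the 6 libraries of that time. The edgeR adjusted p was 0.122 without control B, 0.0907 without control C, and 0.148, 0.123 and 0.0716 without alizarin A, B and C. A block on the replicate letter in a fit of those 6 libraries also lost the call (-1.97, edgeR adjusted p = 0.0533). The Sm50 difference stayed between -2.26 and -1.85 over the 23 fits that each left out 1 library. Without alizarin library A at 24 hpf the call of Sm32 was lost too (edgeR adjusted p = 0.0782), which left C-lectin/PMC1 as the 1 gene called. The count was 5 without alizarin library B of 12 hpf, where Sm37 (adjusted p = 0.015) and Pm27 (adjusted p = 0.0241) passed. Sm37 also passed without control A of 12 hpf (edgeR adjusted p = 0.0486), and Pm27 without alizarin C of 12 hpf (adjusted p = 0.0494).

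At 30 hpf 1 of the 6 genes, Sm32, fell by the same test, at -1.27 (SE 0.32, edgeR adjusted p = 0.0362), where 2.20% of all genes tested were called lower. The other 5 had differences of the same sign: Sm37 -1.47 (edgeR adjusted p = 0.0505), C-lectin/PMC1 -1.95 (0.0602), Pm27 -1.42 (0.0688), Sm29 -1.34 (0.137) and Sm50 -1.15 (0.147). DESeq2 called 4 of the 6, Sm32 among them, and called 776 of the 18419 genes lower. For 6 of 6 genes every alizarin library lay below every control library, against 17.8% of all genes tested. A fit of these 6 libraries alone called 5 of the 6 genes lower without a block, with 1282 of the 15273 genes tested there called lower. Replicate letters paired the samples at this time. Blocking on the letter in that fit called all 6 genes lower, with 18.3% of the 15273 genes called lower. In that blocked fit Sm50 was at -1.25 (edgeR adjusted p = 0.00337), C-lectin/PMC1 at -1.98 (adjusted p = 0.000228) and Sm29 at -1.34 (adjusted p = 0.000834).

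Single libraries moved the 30 hpf calls. The call of Sm32 was lost without control A, B or C (edgeR adjusted p = 0.0955, 0.113 and 0.0878) and without alizarin B or C (0.131 and 0.183). Sm37 passed without any 1 of 7 libraries, namely control A and alizarin A, B and C of 12 hpf, control C of 18 hpf, alizarin C of 24 hpf and alizarin A of 30 hpf, with edgeR adjusted p between 0.0138 and 0.0497. Pm27 passed without alizarin B of 12 hpf (adjusted p = 0.0291) or alizarin A of 30 hpf (adjusted p = 0.0471). C-lectin/PMC1 passed without alizarin B of 12 hpf (adjusted p = 0.0226) or control C of 18 hpf (adjusted p = 0.0400). The number of the 6 genes called ranged from 0 to 4 over these fits.

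None of the 6 genes passed at 12 hpf, where edgeR called 0.0706% of all genes lower. Unadjusted p was under 0.05 for 3 of them (Sm50, Sm32 and Sm37), and DESeq2 called 0. The log2 differences were -0.94 for Sm50, -1.02 for Sm32, -1.01 for Sm37, -0.85 for Pm27, -0.89 for Sm29 and -0.22 for C-lectin/PMC1. No gene of the 6 had its groups apart, against 6.16% of all genes tested. Sm32 passed when control A of 12 hpf was left out (-1.24, edgeR adjusted p = 0.0372). Without alizarin B of 12 hpf the difference of C-lectin/PMC1 turned to 0.24, and without TMM scaling to 0.07.

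None passed at 18 hpf either, where edgeR called 0.0% of all genes lower. C-lectin/PMC1 alone passed at an unadjusted p of 0.05, and DESeq2 called 0. Its log2 difference was -2.09 (SE 0.66, edgeR adjusted p = 0.608). The other 5 lay between -0.58 (Sm50) and -0.09 (Sm37). The groups were apart for 2 of 6 genes, Sm50 and C-lectin/PMC1, against 10.3% of all genes tested. Without control C of 18 hpf the differences of Sm37 and Sm29 turned to 0.13 and 0.11.

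**Figure D2:**
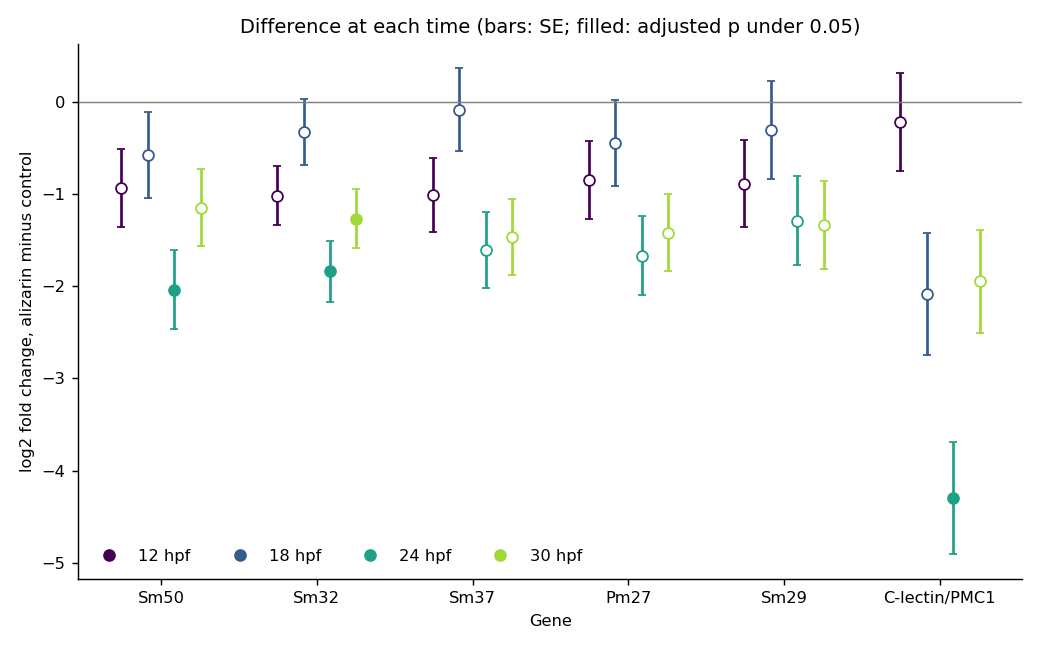
Log2 difference, alizarin minus control, for each of the 6 genes (horizontal axis) at each time (colour), from edgeR's quasi-likelihood fit of all 23 libraries. Bars are 1 SE and filled points passed the adjusted p of 0.05. All 24 points lie below 0, from -4.30 for C-lectin/PMC1 at 24 hpf to -0.09 for Sm37 at 18 hpf.

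Over the mean of the 4 differences all 6 genes fell, where 2.93% of all genes tested were called lower. The mean log2 difference was -2.14 (SE 0.30, edgeR adjusted p = 0.000366) for C-lectin/PMC1, -1.18 (SE 0.22, adjusted p = 0.00383) for Sm50 and -1.12 (SE 0.17, adjusted p = 0.000724) for Sm32. It was -1.10 (edgeR adjusted p = 0.0064) for Pm27, -1.05 (adjusted p = 0.00657) for Sm37 and -0.96 (adjusted p = 0.0271) for Sm29. An exact two-sided permutation of treatment labels within times, over 80000 relabellings, gave p = 0.000188 for Sm50, 0.0001 for Sm32, 0.000338 for Sm37, 0.00025 for Pm27, 0.00201 for Sm29 and 0.00025 for C-lectin/PMC1, unadjusted. At a single time such a test cannot go below 0.1. Of the 6 calls the Sm29 call alone was lost when single libraries were left out. Its edgeR adjusted p was 0.0508 without control C of 12 hpf, 0.0532 without control C of 18 hpf, 0.0906 and 0.053 without alizarin B and C of 18 hpf, and 0.054 without alizarin C of 30 hpf.

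Whether the differences changed with time was tested on their own. No gene of the 6 passed the F test over the 4 times, where 0.505% of all genes were called. C-lectin/PMC1 came nearest (edgeR adjusted p = 0.0722), and it and Sm32 had unadjusted p under 0.05. C-lectin/PMC1 passed without alizarin B of 12 hpf (adjusted p = 0.0122) or control C of 18 hpf (adjusted p = 0.0446). The 24 hpf difference minus the 18 hpf difference was called for 0 of the 6, with 0.00543% of all genes called, 4 at an unadjusted p under 0.05 and 0 by DESeq2. Its log2 value was -1.46 (SE 0.62) for Sm50, -1.51 (SE 0.48) for Sm32 and -2.21 (SE 0.83) for C-lectin/PMC1.

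For each of the 6 genes the largest of the 3 control steps lay between 18 and 24 hpf. From 18 to 24 hpf 2 of the 6 rose, C-lectin/PMC1 by 2.28 on the log2 scale (SE 0.55, edgeR adjusted p = 0.0183) and Sm32 by 1.18 (SE 0.32, adjusted p = 0.0376), where 4.02% of all genes were called higher. Sm50 was at 1.26 (SE 0.42, edgeR adjusted p = 0.0897), Pm27 at 1.07, Sm37 at 0.98 and Sm29 at 0.88. DESeq2 called Sm50 besides, and called 1212 of the 18419 genes higher. The C-lectin/PMC1 call was lost without control A or B of 18 hpf or control B or C of 24 hpf (edgeR adjusted p between 0.0567 and 0.105). The Sm32 call was lost without those same 4 libraries, alizarin C of 18 hpf, or control A or C of 30 hpf (adjusted p between 0.0505 and 0.174). Sm50 passed without alizarin B of 12 hpf (adjusted p = 0.0479) or control C of 18 hpf (adjusted p = 0.0408).

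From 12 to 18 hpf none of the 6 changed in controls, where 14.9% of all genes were called in either direction. Sm32 at -0.91 (edgeR adjusted p = 0.06) and C-lectin/PMC1 at -1.14 (adjusted p = 0.166) had unadjusted p under 0.05, and DESeq2 called 0. Both passed without control C of 18 hpf (edgeR adjusted p = 0.0497 and 0.0409), and Sm32 also without control A of 12 hpf (adjusted p = 0.0321). From 24 to 30 hpf again none changed, with 0.928% of all genes called. C-lectin/PMC1 at -1.59 (SE 0.54, edgeR adjusted p = 0.191) alone passed at an unadjusted p of 0.05, and DESeq2 called 0. The other 5 lay between -0.07 (Sm32) and 0.56 (Sm29).

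That step was not called in alizarin embryos. From 18 to 24 hpf edgeR called none of the 6, at an unadjusted p under 0.05 none and by DESeq2 none, with 0.423% of all genes called. The values lay between -0.54 (Sm37) and 0.07 (C-lectin/PMC1). From 12 to 18 hpf 1 of the 6 changed, C-lectin/PMC1, which fell by 3.0 on the log2 scale (SE 0.69, edgeR adjusted p = 0.007), with 10.7% of all genes called. That call was lost without alizarin C of 18 hpf (adjusted p = 0.178). From 24 to 30 hpf none changed by edgeR, at an unadjusted p under 0.05 or by DESeq2, with 1.04% of all genes called. Values there lay between 0.38 (Sm37) and 0.85 (Sm50), and turned below 0 without TMM scaling for Sm32, Sm37, Pm27 and Sm29, a scaling that also moved the median of all genes by -0.64.

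Alizarin embryos were also set against controls collected 6 h earlier, which asks whether they had the level of younger controls. At 18 hpf against 12 hpf controls 2 of the 6 were lower, C-lectin/PMC1 at -3.22 (SE 0.69, edgeR adjusted p = 0.00584) and Sm32 at -1.24 (SE 0.37, adjusted p = 0.041), where 3.37% of all genes were called lower. The Sm32 call was lost in 10 of the 23 fits that each left out 1 library, with adjusted p up to 0.396 without alizarin C of 18 hpf, and the C-lectin/PMC1 call in that same fit (adjusted p = 0.151). At 24 hpf against 18 hpf controls none was called, where edgeR called 0.0163% of all genes lower. C-lectin/PMC1 at -2.02 (edgeR adjusted p = 0.201) alone passed there at an unadjusted p of 0.05. DESeq2, which called 56 of the 18419 genes lower, called it alone of the 6. The other 5 lay between -0.78 (Sm50) and -0.41 (Sm29).

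At 30 hpf against 24 hpf controls 2 of the 6 were lower, C-lectin/PMC1 at -3.54 (SE 0.59, edgeR adjusted p = 0.0035) and Sm32 at -1.34 (SE 0.32, adjusted p = 0.0219), where 4.34% of all genes were called lower. Sm50 was at -1.19 (edgeR adjusted p = 0.0965), Sm37 at -1.23 (0.078), Pm27 at -1.28 (0.0794) and Sm29 at -0.78 (0.336). The Sm32 call was lost without control B or C of 24 hpf or alizarin B or C of 30 hpf (adjusted p between 0.0827 and 0.11). DESeq2 called 4 of the 6, Sm37 and Pm27 included, and called 1234 of the 18419 genes lower. Sm37 and Pm27 also passed in edgeR without alizarin B of 12 hpf (adjusted p = 0.026 and 0.0359). These comparisons share their control libraries with those at equal time.

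Summed, the 6 genes took 0.155% of all reads in controls at 12 hpf, 0.160% at 18 hpf, 0.282% at 24 hpf and 0.296% at 30 hpf (means of libraries). In alizarin embryos they took 0.104%, 0.132%, 0.118% and 0.101%. These are shares of raw counts without TMM scaling. After TMM scaling the alizarin means of all 6 genes were higher at 30 than at 24 hpf, as for Sm50 (165 and 296 CPM), though none was called. At 24 hpf the control range of 0.223% to 0.314% lay above the alizarin range of 0.0847% to 0.136%. Within that sum the share of Sm50 was 21.4% in controls and 17.0% with alizarin at 24 hpf, and 18.5% and 20.9% at 30 hpf.

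Ratios of reads within a library do not depend on scaling, and are given as a description without a test. Per 1000 Sm50 reads, controls A, B and C had 80.1, 95.0 and 113 reads of C-lectin/PMC1 at 24 hpf, and alizarin libraries had 21.7, 17.4 and 22.6. The controls were thus all above the alizarin libraries, also at 18 hpf (29.6, 52.1 and 58 against 22.3 and 11.6) and at 30 hpf (30.7, 32.5 and 38.5 against 17.5, 14.8 and 28.7). At 12 hpf the ranges overlapped, from 91.5 to 166 in controls and from 115 to 263 with alizarin. Sm32 did not separate the groups at any time by this ratio. At 24 hpf it had 218, 215 and 220 reads per 1000 Sm50 reads in controls and 208, 274 and 263 with alizarin. From 12 to 24 hpf that ratio went from a control range of 431 to 547 down to 215 to 220. Pm27 and Sm29 went the other way at 24 hpf, with every alizarin library above every control: Pm27 had 1336, 1011 and 1115 reads per 1000 Sm50 reads in controls and 1356, 1492 and 1499 with alizarin. Sm29 had 972, 836 and 777 in controls there and 1657, 1623 and 1032 with alizarin. At 30 hpf Sm29 overlapped and Pm27 was lower with alizarin, at 1041, 1009 and 1142 against 1290, 1208 and 1341. The Sm37 ratio overlapped between the groups at 12, 24 and 30 hpf. At 18 hpf both alizarin libraries were above every control for Sm37 (1992 and 2505 against 1363 to 1852) and for Sm29 (1200 and 1426 against 1000 to 1179).

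**Figure D3:**
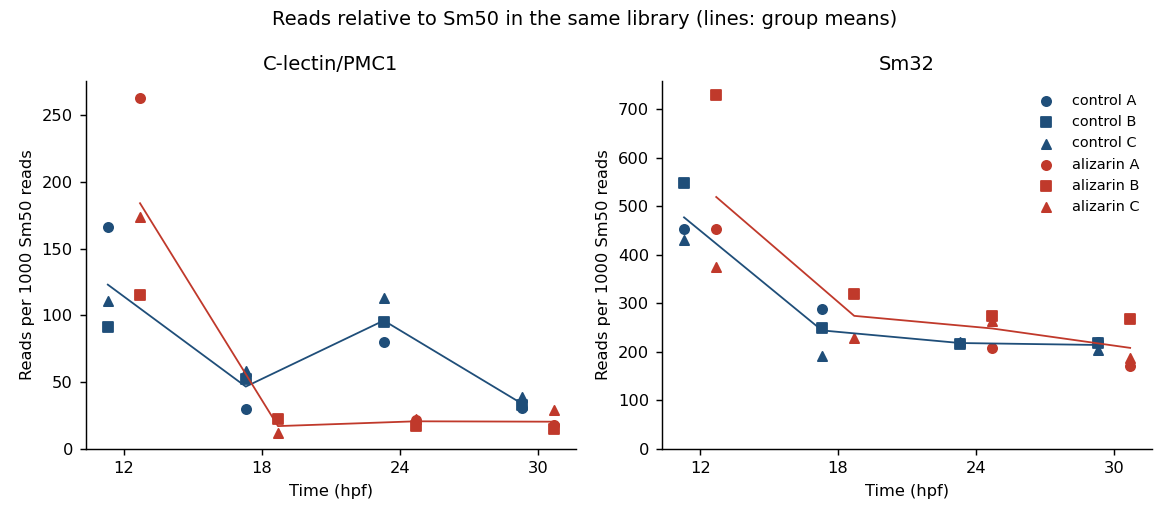
Reads of C-lectin/PMC1 (left) and Sm32 (right) per 1000 Sm50 reads of the same library against collection time (hpf), control in blue and alizarin in red, with lines through group means. At 24 hpf controls had 80.1 to 113 reads of C-lectin/PMC1 and alizarin libraries 17.4 to 22.6, while the Sm32 ranges overlapped.

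Likeness was measured by Pearson's r of log2 CPM over the 23 libraries, which share depth and treatment, and is given as a description. Sm50, Pm27, Sm37 and Sm29 ran together, with r between 0.93 and 0.98 for each pair, and between 0.90 and 0.98 over the 12 control libraries. Sm50 was most like Pm27 (r = 0.983), Sm37 (0.937) and Sm29 (0.929), followed by Clect_13 (0.901), C1orf177L (0.899) and the carbonic anhydrase Cara7LA (0.895). C-lectin/PMC1 was less like Sm50 (r = 0.60) than like Pres_1 (0.928), p58-a, a PMC transmembrane protein (0.895), the collagens Colp3a (0.890) and Colp4a_2 (0.874), and Msp130r2, of the PMC surface glycoproteins (0.853). Sm32 stood between, at r = 0.82 with both Sm50 and C-lectin/PMC1. Its closest genes were Sm30F, an acidic spicule matrix protein (0.871), p58-a (0.852), Clect_13 (0.849) and p58-b (0.843). Over the 12 control libraries their r with Sm32 was lower, at 0.737, 0.671, 0.668 and 0.607. Msp130r2 and Colp3a, next over the 23 libraries (0.83 and 0.828), had 0.897 and 0.848 in controls.

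Other genes of the PMC skeleton were read from a list of 54 IDs of matrix, surface, collagen and ion transport genes, the 6 genes left out, of which 45 were tested. None passed at 12 or 18 hpf by edgeR, where 34 and 33 of the 45 had differences below 0. At an unadjusted p of 0.05 there were 12 lower and 0 higher at 12 hpf, and 5 lower and 1 higher at 18 hpf. DESeq2 called 6 and 0 lower, and 471 and 42 of all 18419 genes. At 24 hpf 5 fell and 0 rose, at 30 hpf 11 fell and 0 rose, and over the mean 18 fell and 0 rose, where 0.722%, 2.20% and 2.93% of all genes tested were called lower. At an unadjusted p of 0.05 0, 1 and 0 were higher, and DESeq2 called 0 higher in all 3. The median difference of the list was -0.42, -0.37, -1.18 and -0.92 at the 4 times, and that of all genes between -0.01 and 0.03. In controls from 18 to 24 hpf 8 of the 45 rose, where 4.02% of all genes were called higher. The 24 hpf count was 2 without alizarin A of 24 hpf, 3 without control B or alizarin B of 24 hpf, 9 without alizarin A of 12 hpf or control C of 18 hpf, and 10 and 11 without alizarin B and control A of 12 hpf. The 30 hpf count was 6, 5 and 6 without control A, B and C of 30 hpf, and 4 and 3 without alizarin B and C. At 12 hpf it was 7 without control A, 2 without alizarin C, and 1 without control C of 18 hpf or alizarin C of 24 hpf.

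At 24 hpf the 5 list genes that fell were Msp130r2, Sm30F, Cara7LA, the bicarbonate transporter Slc4a10 and the proton channel relative Otop2L. Msp130r2 had 665 ± 234 CPM in controls and 88.0 ± 7.02 with alizarin (SD, n = 3 each; -2.92, edgeR adjusted p = 0.000534). Sm30F had 318 ± 178 CPM in controls and between 0.0753 and 3.62 CPM with alizarin (-7.80, adjusted p = 0.00158), a larger difference than that of any of the 6 genes. Reads could be split between Sm30F and other Sm30 IDs, which was not tested, so the Sm30F level is uncertain. Slc4a10 had 349 ± 79.5 CPM and 120 ± 27.4 CPM (-1.54, edgeR adjusted p = 0.0229). At 30 hpf P19, a PMC protein, had 1852 ± 146 CPM in controls and 395 ± 58.3 CPM with alizarin (-2.23, edgeR adjusted p = 0.00132), and Cara7LA 150 ± 35.8 and 19.9 ± 9.72 CPM (-2.92, adjusted p = 0.0113).

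**Figure D4:**
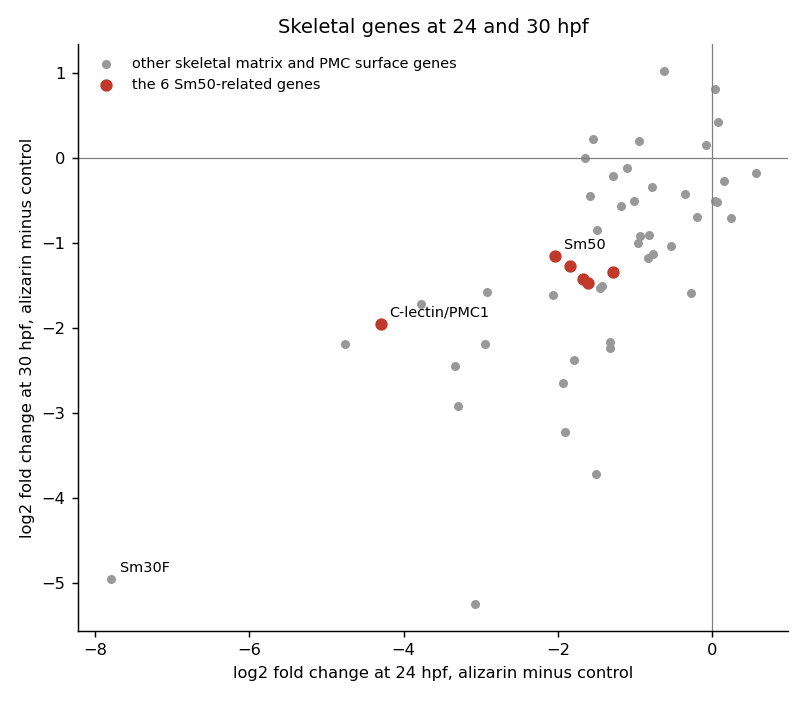
Log2 difference, alizarin minus control, at 24 hpf (horizontal axis) and 30 hpf (vertical axis) for the 6 genes in red and the 45 other tested skeletal genes in grey. All 6 lie below 0 on both axes, and 38 of the 45 others lie below 0 at 24 hpf and 38 at 30 hpf.

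Of 22 IDs of genes that regulate the PMC lineage 21 were tested. By edgeR 1 rose at 24 hpf, 1 at 30 hpf and 2 over the mean of the times, and by DESeq2 2, 1 and 2. Of all 18419 genes tested, edgeR called 22, 207 and 388 higher, and DESeq2 84, 414 and 632. At 24 and 30 hpf 0 fell by edgeR, none at an unadjusted p of 0.05 and none by DESeq2. DESeq2 called 2 lower at 12 hpf and 1 over the mean, and 471 and 1077 of all 18419 genes. The summed level of the 21 was higher with alizarin in every library at 12 hpf (949 to 1157 against 781 to 902 CPM), 18 hpf (538 to 655 against 396 to 524 CPM) and 30 hpf (490 to 551 against 308 to 352 CPM). It overlapped at 24 hpf (435 to 589 against 347 to 459 CPM). A sum weighs the best expressed IDs most, such as Jun, at 172 CPM in controls and 320 CPM with alizarin at 30 hpf (edgeR adjusted p = 0.155). The median log2 difference of the 21 was 0.38, 0.48, -0.15 and -0.04 at the 4 times. That of all genes was 0.02, -0.01, 0.02 and 0.03. Tbr, a T-box factor used in skeletogenic specification, rose at 24 hpf from 9.55 ± 8.29 to 45.1 ± 8.70 CPM (SD, n = 3 each; 2.24, SE 0.44, edgeR adjusted p = 0.0182). Its 30 hpf level was 1.21 ± 0.223 CPM in controls and 27.9 ± 9.35 CPM with alizarin (4.51, SE 0.52, adjusted p = 7.72e-05). Alx1, the homeodomain factor that directs the skeletal gene set, was 16.3 ± 5.83 CPM in controls and 8.60 ± 0.247 CPM with alizarin at 24 hpf (-0.93, SE 0.51, edgeR adjusted p = 0.505). Ets1/2 was 12.6 ± 2.17 and 8.38 ± 6.19 CPM there (-0.60, adjusted p = 0.74). The VEGF receptor ID Vegfr10 was 21.2 ± 4.74 and 34.5 ± 14.6 CPM (0.71, adjusted p = 0.39). Nk7 was 3.75 ± 1.03 and 15.6 ± 7.26 CPM (2.06, edgeR adjusted p = 0.235), FoxN2/3 9.99 ± 2.91 and 24.8 ± 11.8 CPM (1.31, adjusted p = 0.115), and Jun 183 ± 47.3 and 264 ± 42.4 CPM (0.53, adjusted p = 0.573). Of the other symbols at 24 hpf, FoxO_1 (-0.92), Tel (-0.76), Snail (-0.56), FoxB (-0.32) and Erg (-0.01) had differences below 0. Those of Vegfr7 (0.50), Alx4 (0.38), Tgif (0.33) and Twist (0.18) lay above 0. None of these named regulators but Tbr passed the test at that time.

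Some genes of other embryonic cells were called at 24 or 30 hpf as well, and their part in the result was not tested. Of all genes tested, 0.722% were called lower at 24 hpf and 2.20% at 30 hpf. Of the 6 muscle IDs 3 were tested, 2 fell at 24 hpf and 1 at 30 hpf, and their summed level was 178 to 268 CPM in controls and 78.0 to 84.0 CPM with alizarin at 24 hpf. At 30 hpf it was 180 to 204 and 48.1 to 69.1 CPM. Of the 17 pigment cell IDs 15 were tested, 1 fell at 24 hpf and 3 at 30 hpf, with summed levels of 2760 to 3657 and 1175 to 1681 CPM at 24 hpf and of 1693 to 1926 and 665 to 1163 CPM at 30 hpf. Of 7 gut IDs 1 fell at 24 hpf, and of 4 apical and neural IDs 2 rose at 30 hpf, where 207 of all 18419 genes were called higher. Summed blastocoelar levels (5 IDs) were 49.1 to 62.9 CPM in controls and 48.2 to 62.3 CPM with alizarin at 24 hpf, and ectoderm levels (2 IDs) 183 to 243 and 196 to 259 CPM. At 30 hpf blastocoelar levels were 45.8 to 48.9 and 47.1 to 67.6 CPM, and ectoderm levels 161 to 255 CPM in controls and 253 to 476 CPM with alizarin. No marker ID was at 0 in every library.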

How the data were processed

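Per the labels' protocols, TRIzol RNA of whole embryos was made into DNBSEQ mRNA libraries, and STAR 2.7.1a was the aligner, per the submitters' processing notes. The genome build, annotation and counting tool are not given in the sources used here. The deposited table holds the authors' raw read counts per gene, 109578 lines that repeat a gene for each protein match. It was reduced to 27232 IDs (0 conflicts), and 1 unreadable ID was dropped. Depth was 8194215 to 11730004 counts per library, and the levels carry counting error besides the spread between libraries.

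Genes were filtered with filterByExpr (minimum count 10, 8 groups), which kept 18419. Counts were scaled with TMM, and 1 model of 8 group means over 23 libraries was fitted with the robust quasi-likelihood method of edgeR 4.0.16 in R 4.3.3 (15 residual df, common BCV 0.423). Each SE was taken as the size of the log2 fold change over the root of its F. The script was tested on simulated data. Also used were DESeq2 1.42.0, limma 3.58.1, and, in Python 3.11.15, scipy 1.17.1, pandas 2.3.3, matplotlib 3.10.9 and numpy 2.4.6. Log2 CPM used a prior count of 2.

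Nothing in the labels tells whether replicates came from separate cultures, so p-values measure only how these libraries vary, in part perhaps for technical reasons. Replicate letters were checked by correlating deviations from group means of same-letter samples. They paired the samples at 30 hpf (r = 0.50, 0.66 and 0.57). At the other times r lay between -0.24 and 0.19, so pairing there was weak or absent. Of all 11 pairs 7 were over the set minimum of 0.1, some of them at the earlier times. No replicates were duplicates: the closest pair had a chi-square of 14.9 per degree of freedom.

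The 6 genes and all lists were chosen with earlier results of these data known. The skeletal list was narrowed after the table was seen: general C-type lectins and P450 symbols that matched its patterns were left out. Named were all 6 genes, up to 6 list genes of smallest adjusted p at 24 and 30 hpf, the best expressed ID per regulator symbol and the 6 most alike genes per gene, of which the text gives a part. Alternatives were RLE, upper quartile and no TMM scaling, DESeq2, no filter, only the groups compared, replicate blocks, leaving out each library, permutation, and Sm50 and Sm32 reads summed. The no-TMM scaling, the summed reads and the 24 minus 18 hpf contrast were added after the data were seen.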

Additional observations from a re-analysis of the deposited data

Results flagged for a closer look

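The difference between alizarin and control embryos changed with time for 2 genes named above or on the skeletal list, by edgeR's F test over the 4 times. For Tbr (edgeR adjusted p = 0.0175) it was 2.24 at 24 hpf and 4.51 at 30 hpf on the log2 scale. The 12 and 18 hpf differences of Tbr are not given here, and its control mean at 30 hpf was only 1.21 CPM. For the fibrillar collagen ID L_var_06442, named FcolI/II/IIIf (edgeR adjusted p = 0.043), the difference was -0.60, 0.44, -1.91 and -3.22 at 12, 18, 24 and 30 hpf.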

How the results depend on the processing

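Groups of 2 or 3 libraries limit every call, and no test separated counting error from the spread between libraries. Of 929 values of the 6 genes, alizarin minus control, 924 kept their direction over all alternatives. The fits reuse the same libraries, and many left out a library of another time, so these values are not independent checks. No copies shared a symbol, so that alternative was not run.

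For Sm50 the 24 hpf difference was -1.97 with a replicate block within each time (edgeR adjusted p = 0.0533), and at 30 hpf the difference passed at -1.25 with that block and at -1.36 without TMM. C-lectin/PMC1 passed at 30 hpf at -1.95 with DESeq2, -1.93 with only the groups compared, -1.99 and -1.98 with a replicate block and one within each time, and -2.13 without TMM. The blocks pair by letter only; no other call of Sm50 or C-lectin/PMC1 between treatments changed with them.

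The count of the 6 genes called at 24 hpf was 5 with DESeq2 and with only the groups compared. At 30 hpf it was 4 with DESeq2, 5 with only the groups compared and without TMM, 3 with a replicate block and 6 with one within each time. The skeletal list gave 6 at 12 hpf with DESeq2, and 1 without a filter and with a replicate block. It gave 3 at 18 hpf with a block within time, 15, 9 and 3 at 24 hpf with DESeq2, only the groups compared and no TMM, and 19 and 27 at 30 hpf with only the groups compared and the block within time.

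Uncalled values turned sign as follows. Without TMM, C-lectin/PMC1 at 12 hpf was 0.07, control 18 minus 12 hpf 0.02 for Sm37, alizarin 24 minus 18 hpf 0.06 for Sm29, and alizarin 30 minus 24 hpf -0.23, -0.33, -0.18 and -0.38 for Sm29, Pm27, Sm32 and Sm37. Sm50 in control 18 minus 12 hpf was -0.13 with reads summed, and in control 30 minus 24 hpf 0.01 with RLE scaling and DESeq2. C-lectin/PMC1 in alizarin 24 minus 18 hpf was -0.02 with a replicate block. Without TMM the median of all genes moved to 0.32, -0.03, 0.42 and -0.09 at the 4 times, and with upper quartile scaling to 0.11 at 30 hpf. Relative to those medians the 6 genes stayed lower at 24 and 30 hpf, where Sm50 without TMM was at -1.65 and -1.36.

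Leaving out 1 library gave these ranges. Alizarin minus control: C-lectin/PMC1 -0.59 to 0.24 (12 hpf) and -2.30 to -1.63 (30 hpf), Sm29 -0.56 to 0.11 and Sm37 -0.29 to 0.13 (18 hpf), Sm50 -2.26 to -1.85 (24 hpf). Control 18 minus 12 hpf: Sm29 -0.73 to 0.03, Pm27 -0.14 to 0.50, Sm50 -0.30 to 0.35, Sm37 -0.41 to 0.06. Control 30 minus 24 hpf: Pm27 -0.00 to 0.31, Sm32 -0.29 to 0.12, Sm50 -0.26 to 0.14. Alizarin 18 minus 12 hpf: Sm29 -0.16 to 0.75, Sm32 -0.50 to 0.06. Alizarin 24 minus 18 hpf: Sm29 -0.20 to 0.05, C-lectin/PMC1 -0.29 to 0.64. Alizarin 30 minus 24 hpf: Pm27 -0.10 to 0.62, Sm37 -0.03 to 0.62. Against earlier controls: Pm27 -0.53 to 0.05 (18 hpf), Sm29 -0.65 to 0.02 (24 hpf). The 6 genes called numbered 0 to 1, 1 to 5 and 0 to 4 at 12, 24 and 30 hpf, and the skeletal list 0 to 7, 2 to 11 and 3 to 13. The cause of these changes was not tested.

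Over all genes edgeR called 18, 0, 155 and 612 at the 4 times and 928 over the mean, and DESeq2 698, 51, 505, 1190 and 1709. Without TMM 11, 0, 90 and 393 were called, with RLE 9 and with upper quartile scaling 8 at 12 hpf. With only the groups compared 0 were called at 12 hpf and 2001 at 30 hpf. A replicate block gave 97 at 12 hpf, and one within each time 0, 45, 67 and 5115. The share of higher calls was 14.2% and 33.8% at 24 and 30 hpf, against 21.6% and 45.9% with upper quartile scaling and 44.4% and 24.7% without TMM.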

Other observations

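Clect_13 (L_var_26744), whose ID is numbered next to that of Sm29, was singled out after its values were seen. Its level was 37.8 ± 9.10 CPM in controls and 3.24 ± 1.22 CPM with alizarin at 24 hpf (SD, n = 3 each; -3.54, edgeR adjusted p = 0.00109), and 48.0 ± 1.68 and 6.64 ± 3.68 CPM at 30 hpf (-2.86, adjusted p = 0.0024). The 2 other C-type lectin IDs numbered among the 6 genes did not pass at any time. Clect_14 (L_var_26742) was 52.6 ± 19.2 and 78.8 ± 66.0 CPM at 24 hpf (0.58, edgeR adjusted p = 0.715), and Clect_25 (L_var_27178) 3.81 ± 1.72 and 2.89 ± 0.759 CPM (-0.40, adjusted p = 0.872). Of 176 IDs named Clect 82 were tested, of which 4 fell and 0 rose at 24 hpf, and 10 fell and 1 rose at 30 hpf by edgeR. Of all genes tested, 0.722% and 2.2% were called lower at those times. The median log2 difference of the 82 was -0.1 at 24 hpf and 0.1 at 30 hpf.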
